A study of Drosophila melanogaster with 2 samples.

Results

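Divergent promoters are short stretches of DNA from which 2 protein-coding genes are read in opposite directions. GFP-tagged Dachshund gave 354 peaks at such promoters on the autosomes of Drosophila prepupae. They come from 4137 peaks that passed the irreproducible discovery rate (IDR) step, which is meant to keep peaks that repeat. The sources used here do not say which lists that step compared. Of the 354, 45 overlapped no peak in the list of 1 replicate, and 5 none in that of the other. Over all 3252 autosomal peaks these counts were 103 and 24. A peak was taken when its summit, the position of its highest signal, was not on X and lay within 500 bp of a plus-strand start site of one protein-coding gene and of a minus-strand start site of another. The signal of the peak played no part in the choice. The study was a chromatin immunoprecipitation with sequencing (ChIP-seq) in which an antibody against GFP recovered chromatin from whole prepupae, males and females mixed. These animals, of a strain labelled dac-GFP, carried the Dachshund gene (dac) fused at its C-terminal end to eGFP, and they form the only group, with 2 biological replicates numbered 1 and 3. The labels give an age of 48 days, which cannot hold for a prepupa, and they do not name a tissue, so a peak can come from any cell type of the animal. Without a mock library among the data analysed here, recovery of open promoters by the procedure itself and binding of the tagged protein cannot be told apart.

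In the fly genome many neighbouring genes stand head to head, with their start sites close together and a stretch of open chromatin between them. Such pairs are rich in housekeeping genes, whose promoters carry their own set of short elements in place of a TATA box: the sites of DREF, M1BP and the boundary protein BEAF-32, the element called motif 7, and the E-box. Dachshund, a nuclear protein of the Ski and Sno family, is known for its part in eye, leg and mushroom body development, where it works with Sine oculis and Eyes absent.

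The sequences between the start sites show what the peaks cover. They come from the RefSeq Release 6 genome, which has the coordinates of dm6, and are given on the plus strand, 5′ to 3′, from the base after the minus-strand start to the base before the plus-strand start. Capitals mark matches on either strand to 6 elements. The DREF site was searched as TATCGATA, that of M1BP as GGTCACACT, and that of BEAF-32 as CGATA, which lies inside the DREF letters. Motif 7 was searched as CANCNCTA and the E-box as CAGCTG. For GAGA factor the letters were GAGAGAG. The first 6 are the highest peaks by signal among 93 head-to-head promoters of 2L, 3L and 3R that held the summit and no annotated exon in 60 to 300 bp between the starts. The next 2 are the highest of these with an M1BP and with a GAGA match, and the last 2 the highest remaining ones with an E-box, which were added after the E-box values below were known.
Tcs5 and CHMP2B, chr3L:5139396-5139618, summit at base 94: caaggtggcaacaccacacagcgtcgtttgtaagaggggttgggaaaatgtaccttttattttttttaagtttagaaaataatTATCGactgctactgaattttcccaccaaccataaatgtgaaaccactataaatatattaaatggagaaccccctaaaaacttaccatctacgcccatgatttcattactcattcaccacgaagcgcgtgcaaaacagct
CG3437 and CG3552, chr3L:9457670-9457911, summit at base 145: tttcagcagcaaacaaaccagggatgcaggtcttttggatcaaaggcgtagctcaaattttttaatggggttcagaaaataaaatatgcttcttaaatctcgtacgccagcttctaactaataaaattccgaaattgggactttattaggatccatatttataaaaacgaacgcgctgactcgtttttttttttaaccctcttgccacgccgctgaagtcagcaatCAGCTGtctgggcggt
fws and Lamtor3, chr2L:17481030-17481230, summit at base 117: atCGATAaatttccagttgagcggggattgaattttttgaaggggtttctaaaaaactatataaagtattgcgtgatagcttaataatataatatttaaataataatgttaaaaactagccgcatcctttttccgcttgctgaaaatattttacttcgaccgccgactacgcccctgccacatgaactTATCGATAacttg
CG10747 and Pyroxd1, chr2L:20091349-20091434, summit at base 70: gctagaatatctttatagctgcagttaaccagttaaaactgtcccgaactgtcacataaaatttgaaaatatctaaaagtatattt
Lon and PIG-F, chr3L:19612200-19612454, summit at base 98: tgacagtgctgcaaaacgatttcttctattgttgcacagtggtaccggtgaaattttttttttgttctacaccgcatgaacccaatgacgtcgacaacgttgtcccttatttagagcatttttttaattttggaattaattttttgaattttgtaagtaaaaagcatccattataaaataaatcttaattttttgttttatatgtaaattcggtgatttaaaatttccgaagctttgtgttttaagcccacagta
Atat and Shc, chr3L:9426759-9427009, summit at base 138: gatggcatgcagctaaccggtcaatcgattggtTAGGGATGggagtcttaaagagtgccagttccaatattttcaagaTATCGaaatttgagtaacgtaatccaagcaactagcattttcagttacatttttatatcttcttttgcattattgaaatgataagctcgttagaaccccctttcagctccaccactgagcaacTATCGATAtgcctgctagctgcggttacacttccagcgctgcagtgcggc
CG13690 and RpLP1, chr2L:419653-419951, summit at base 281: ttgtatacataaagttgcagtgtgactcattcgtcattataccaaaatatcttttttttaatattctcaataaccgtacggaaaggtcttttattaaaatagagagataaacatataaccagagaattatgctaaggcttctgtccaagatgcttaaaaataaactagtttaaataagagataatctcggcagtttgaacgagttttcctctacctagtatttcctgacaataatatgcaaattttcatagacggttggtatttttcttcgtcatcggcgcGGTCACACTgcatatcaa
ntc and IntS10, chr3L:3806460-3806709, summit at base 66: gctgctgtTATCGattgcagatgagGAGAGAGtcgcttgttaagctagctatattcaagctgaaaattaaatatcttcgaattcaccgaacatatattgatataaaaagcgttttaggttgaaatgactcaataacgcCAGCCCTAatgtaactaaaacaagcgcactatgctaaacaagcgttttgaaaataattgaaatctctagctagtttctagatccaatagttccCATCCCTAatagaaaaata
CG13390 and CG17294, chr2L:8376798-8377034, summit at base 91: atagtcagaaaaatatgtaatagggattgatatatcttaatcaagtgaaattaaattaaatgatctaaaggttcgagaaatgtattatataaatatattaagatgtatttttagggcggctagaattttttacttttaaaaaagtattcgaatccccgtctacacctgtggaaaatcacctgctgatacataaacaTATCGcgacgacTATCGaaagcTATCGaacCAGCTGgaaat
Reps and l(2)gd1, chr2L:11106646-11106942, summit at base 144: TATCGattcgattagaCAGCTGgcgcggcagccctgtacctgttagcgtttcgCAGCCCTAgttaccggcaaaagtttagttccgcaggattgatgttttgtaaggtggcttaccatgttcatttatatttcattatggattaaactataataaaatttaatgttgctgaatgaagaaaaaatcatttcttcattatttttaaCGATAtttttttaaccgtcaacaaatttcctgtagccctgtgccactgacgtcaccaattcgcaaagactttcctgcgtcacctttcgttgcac

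In these promoters the few DREF and E-box matches lay nearer an end of the sequence than its middle. At CG13690 and RpLP1 the summit stood beside the M1BP match at the right end. The promoter of Lon, a mitochondrial protease, and PIG-F, of glycolipid anchor synthesis, had 30.6% GC and no match to any of the 6 elements, with a signal of 753. That of CG10747 and Pyroxd1 had 29.1% GC, no match and a signal of 765. In fws and Lamtor3, which encode a tethering factor of the Golgi and a subunit of the lysosomal Ragulator, the DREF match began at base 189 of 201, and in Atat and Shc, for a tubulin acetyltransferase and a signalling adaptor, at base 202 of 251. The E-box of CG3437 and CG3552 began at base 227 of 242, and that of Reps and l(2)gd1 at base 17 of 297.

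The 354 peaks made up 30.6% (95% Wilson interval 28.0 to 33.3) of the 1157 autosomal peaks within 500 bp of any protein-coding start. The other 803 promoter peaks had starts of 1 direction only, and 2095 autosomal peaks lay farther from a start. Intervals here and below cover counting error alone, since peaks are not replicates and the read depth of the libraries is unknown. Arm 2L had the largest share, 35.4%, and arm 2R the smallest, 24.1%, with 33.3% for 3L and 30.4% for 3R, and none of the 4 promoter peaks on chromosome 4 qualified. It was 27.5% among the 4137 highest peaks of replicate 1 alone and 32.2% in replicate 3 alone. The peaks belonged to 340 gene pairs and put 706 genes within reach. In 14 pairs there were 2 peaks each, often adjacent, as at p38a and CG6178 with signals of 581 and 281, where both overlap the same peak in each replicate. At least 3 genes lay in the window of 23 peaks. In 345 the start sites stood head to head, and in 9, among them CG31808 and Cyt-c-d with a signal of 799, the transcripts overlapped at their 5′ ends.

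Having a divergent partner went with having a peak. Of all 11749 autosomal protein-coding genes, 12% had an IDR summit within 500 bp of a start. The share was 19.7% (18.5 to 20.9) for the 4347 genes with an opposite-strand start within 1000 bp and 7.48% (6.91 to 8.11) for the 7402 without. Both replicates gave this order, with 15.8% against 6.97% in the list of replicate 1 and 23.1% against 8.28% in that of replicate 3. A summit between paired genes counts for both of them, which raises the first share by construction. Counted as head-to-head pairs up to 1000 bp apart, 366 of 2264 had a summit within 500 bp of both starts, or 16.2%.

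The signal, the authors' own value for each peak, was higher at the median at divergent promoters than at those of 1 direction. Its median was 203 (95% interval 184 to 222, from the order of the values) in the divergent set, with quartiles at 144 and 320, against 178 (169 to 189) at single-direction promoters and 166 (162 to 170) away from promoters. On the log2 scale the median difference between divergent and single-direction peaks was 0.19, and it depended on the window, with 0.39 for summits within 250 bp of the starts and 0.10 within 1000 bp. Among peaks at or above the median signal it was 0.04. From the signals of each replicate's own list it was 0.20 in replicate 1 and 0.17 in replicate 3 (SD 0.02, from these values alone). The window and the signal cut thus moved it more than the choice of replicate did. The intervals of the divergent and single-direction medians overlapped. The sets overlapped over most of their range.

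The highest peak lay at Chro and Ssl1, on 3L from 22878714 to 22879083, with a signal of 1347. Chro encodes Chromator, a chromodomain protein of domain boundaries and the spindle, and Ssl1 a subunit of the transcription factor TFIIH. It ranked 12 of 30000 in replicate 1, with a signal of 498, and 13 in replicate 3, with a signal of 858. Scales differ between lists, so ranks are set side by side. Next came Tcs5, a kinase gene of tRNA modification, and CHMP2B, of the ESCRT membrane machinery, at 1293 and rank 15 in both replicates. The peak at tank and CG12194 had 1166 and ranks 27 and 19 in replicates 1 and 3. CG5757 and CG5098 had 1142 and ranks 26 and 22. A mitochondrial ribosomal protein gene, mRpS23, paired with the Arf regulator CenG1A, had 1092 and ranks 30 and 26. Pex11ab, of peroxisome division, paired with CG8320, had 1047 and ranks 45 and 25. Pdrg1 and Pal1, the latter for a peptide amidation enzyme, had 1023 and ranks 19 and 44. These strongest peaks thus stood within the top 50 of both replicates. The other 5 of the top 12 were CG3437 and CG3552 (1015), mRpL23 and CG9004 (961), fws and Lamtor3 (956), Fbw5 and CG9147 (906), and CG5611 with Mtl (818), and their ranks ran from 43 to 79 in replicate 1 and from 29 to 60 in replicate 3.

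**Figure D1:**
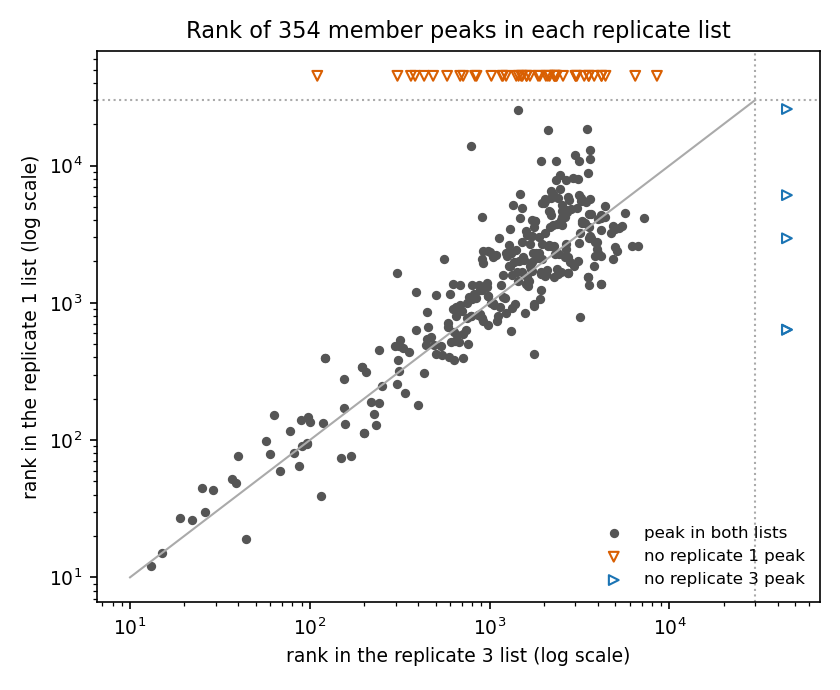
Rank of each of the 354 peaks in the 30000-peak lists of replicate 3 (x axis, log scale) and replicate 1 (y axis, log scale); the solid line marks equal rank and open triangles peaks found in 1 list only. Ranks follow each other closely at the top, while 45 peaks have no replicate 1 peak and 5 no replicate 3 peak.

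The replicates ranked the peaks alike but not equally completely. Of the 354 peaks, 304 (85.9%, 81.9 to 89.1) overlapped a peak in the relaxed lists of both replicates, and Spearman's rho between their ranks was 0.815 over those peaks, which share the 2 libraries. No replicate 1 peak was found for 45 (12.7%), against 43 of 803 (5.35%) single-direction and 15 of 2095 (0.716%) distal peaks. No replicate 3 peak was found for 5 (1.41%). From the highest to the lowest quartile of autosomal signal, 10.4%, 9.20%, 17.1% and 17.5% of divergent peaks were missing in replicate 1, so strong peaks were among them. At single-direction promoters these were 2.12%, 4.89%, 8.67% and 6.42%. The strongest of them, at Etfb and CG7789, had a signal of 597 and rank 110 in replicate 3, and the nearest replicate 1 summit was 13928 bp away. Others were mRpL24 with betaggt-I (496, rank 307 in replicate 3), Gk1 with CG13876 (426, rank 385) and Phf5a with CG31638 (414, rank 432). Of the 45, 42 had no replicate 1 summit within 1000 bp. The 5 missing in replicate 3 were 2 at FucTB and scat and 1 each at CG9775 with MED31, Unc50 with CG8043 and muskelin with CG33792. Where both lists had a peak, its rank number was the larger in replicate 1 for 186 of 304. The median log2 ratio was 0.27 (0.16 to 0.42), against 0.09 (-0.01 to 0.18) at single-direction and -0.12 (-0.17 to -0.08) at distal peaks. The lists also differ in how many peaks reach a q-value of 0.05, 5282 in replicate 1 and 13828 in replicate 3; the part of this in the missing peaks was not tested.

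Summits lay in the gap between the genes. Of the 345 head-to-head peaks, 285 (82.6%, 78.3 to 86.2) had the summit between the start sites, and in the lists of replicates 1 and 3 the share was 83.5% and 82.1%. The gap measured 295 bp at the median, with quartiles at 222 and 393 and a range of 8 to 807 bp. The summit was 91.5 bp from the nearest start at the median over all 354 peaks, and 164 were nearer the minus-strand and 190 the plus-strand start. By annotation 227 summits were intergenic, 77 in an exon outside coding sequence, 47 in an intron and 3 in coding sequence. Single-direction promoter summits also lay mostly upstream, 80.8% (78.0 to 83.4) of 803, at a median of 163 bp from the start on that side.

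In narrow gaps the summit was less often between the starts. With 201 to 300 bp between the starts the summit fell between them at 101 of 110 promoters (91.8%). With 101 to 200 bp it did so at 21 of 38 (55.3%), and with up to 100 bp at 9 of 35 (25.7%), where a gap is also a smaller target. A summit must lie within 500 bp of both starts, so the room outside shrinks as the gap grows, and above 500 bp the rule leaves none. Of the 60 summits outside the gap, 33 lay downstream of the minus-strand and 27 of the plus-strand start, by 50.5 bp at the median and 326 bp at most. Chro is one of these, with its summit 90 bp inside its own transcript.

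**Figure D2:**
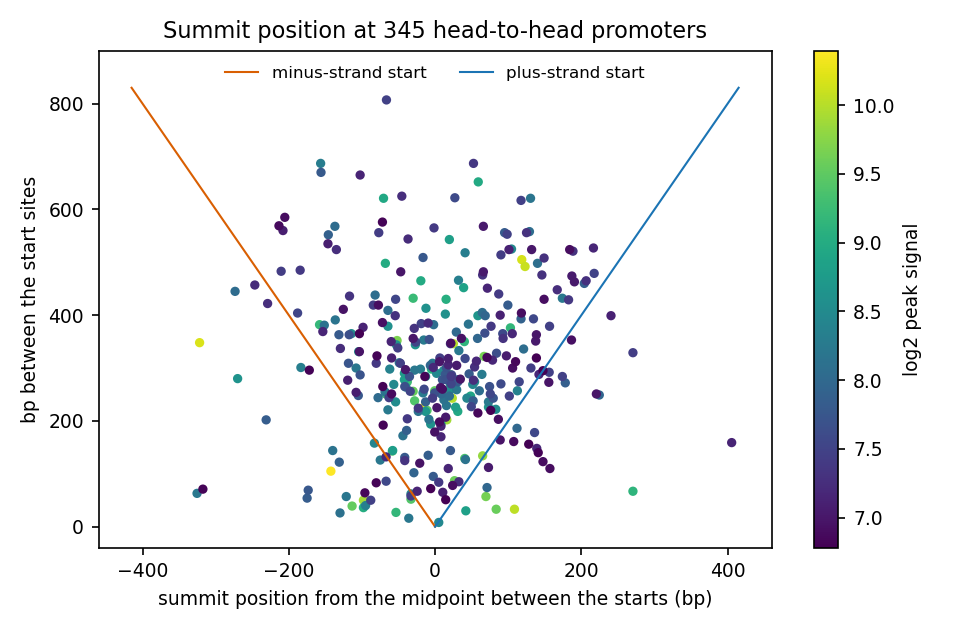
Position of the summit relative to the midpoint between the starts (x axis, bp) against the distance between the starts (y axis, bp) for the 345 head-to-head peaks, with colour for log2 signal. The lines mark both start sites; 285 points lie between them, and in gaps above 500 bp the rule allows no other place.

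The narrowest gaps were those of SerRS, a tRNA synthetase gene, with CG17260 (8 bp, signal 354), of the Polycomb methyltransferase gene E(z) with Cnep1r2 (16 bp, 298) and of p38a with CG6178 (26 bp, 281). The widest were CG13280 with CG13272 (807 bp, 179), and app with CG32100 and stwl with CG3919 (687 bp each, 315 and 165). The median signal was 281 with up to 100 bp, 252 at 201 to 300 bp and 170 at 501 to 750 bp. At the limit of the rule, 8 peaks had their farther start at 481 to 500 bp, with a median signal of 181. They were Rhau with dia (141), crp with pkaap (136), Nepl19 with Nepl20 (221), CG31650 with CG33995 (263), tank with CG12194 (1166), CG43102 with pasi1 (120), Gfat2 with Moca-cyp (117) and app with CG32100 (315). Just outside, at 501 to 520 bp, were GstS1 with CG46491 (112) and CG13605 with Root (133).

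Against all head-to-head pairs, peaks were most frequent at middle spacings. A summit was present at 24.7% (21.0 to 28.9) of the 457 pairs 201 to 300 bp apart and at 22.3% (18.2 to 26.9) of the 350 pairs 301 to 400 bp apart. The share was 16.3% (12.9 to 20.5) up to 100 bp, 15.9% (12.2 to 20.3) at 101 to 200 bp, 14.9% (10.9 to 20.1) at 401 to 500 bp and 9.38% (6.73 to 12.9) at 501 to 750 bp. In replicate 1 the class at 201 to 300 bp had 20.1% against 13.9% at 101 to 200 bp and 11.4% at 401 to 500 bp. In replicate 3 these were 30.9%, 18.4% and 16.2%. The stretch that lies within 500 bp of both starts shrinks as the gap grows, and per 100 kb of it the IDR list had 17.3, 18.6, 33.1, 34.0, 27.0 and 24.0 pairs with a summit in the 6 classes up to 750 bp. Counted this way the classes from 201 to 750 bp of the IDR list all stood above the 2 narrow ones. The class at 751 to 1000 bp, with 3.45, stood below them. Among peaks at or above the median signal, the class at 501 to 750 bp had 11.3, against 11.4 up to 100 bp.

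**Figure D3:**
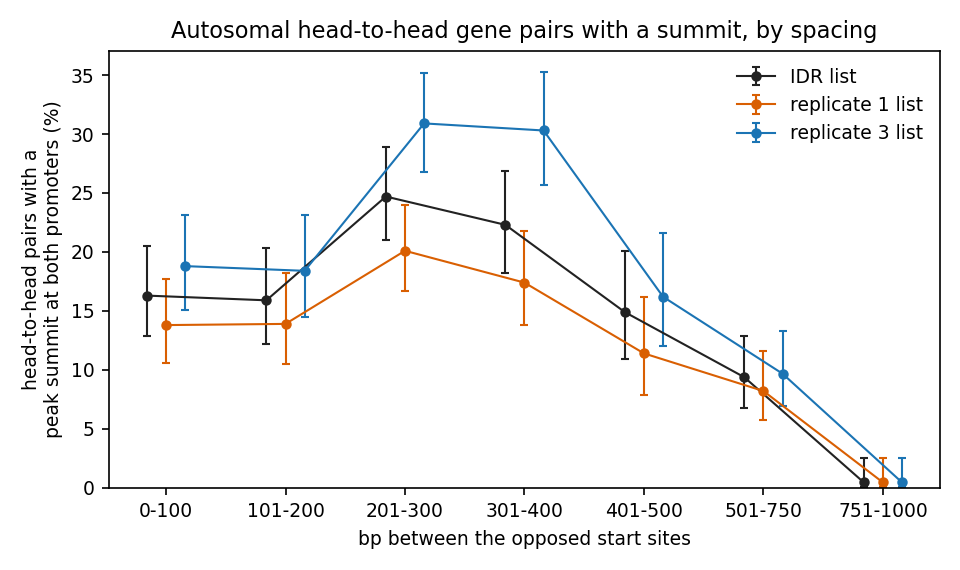
Share of autosomal head-to-head gene pairs with a summit within 500 bp of both starts (y axis, percent) by distance between the starts (x axis, bp), in the IDR list and in the 4137 highest peaks of each replicate; bars are 95% Wilson intervals. All 3 lists are highest at 201 to 300 bp, with 24.7%, 20.1% and 30.9%.

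The housekeeping elements named above were more frequent at divergent than at single-direction peaks. By the rule a divergent peak has start sites of both directions nearby, and a single-direction peak of 1 only. How far this alone raises the shares was not tested. Within 100 bp of the summit, on either strand, DREF was found at 21 of 354 divergent peaks (5.93%, 3.91 to 8.90) and 19 of 803 single-direction peaks (2.37%, 1.52 to 3.67). M1BP was at 4.80% (3.02 to 7.56) against 1.87% (1.14 to 3.06), BEAF at 38.1% (33.2 to 43.3) against 26.2% (23.2 to 29.3), and motif 7 at 18.1% (14.4 to 22.4) against 9.22% (7.40 to 11.4). The E-box was at 15.3% (11.9 to 19.4) against 8.97% (7.18 to 11.1). GAGA went the other way, at 5 of 354 divergent (1.41%, 0.605 to 3.26) and 85 of 803 single-direction peaks (10.6%, 8.64 to 12.9). In the lists of replicates 1 and 3 GAGA was at 1.06% and 1.42% of divergent against 8.57% and 10.8% of single-direction peaks. Motif 6, a further promoter element that was searched, differed less. It had 8.19 matches per 100 divergent and 5.85 per 100 single-direction peaks within 50 bp of the summit. At 51 to 100 bp these were 4.80 and 5.11. In windows of the same length upstream of all autosomal protein-coding genes the shares were 6.73% for DREF, 2.64% for M1BP, 37.1% for BEAF, 9.40% for motif 7, 11.7% for the E-box and 4.83% for GAGA, so DREF and BEAF at divergent peaks stood near the level of promoters at large. The letters TATAAA were found at 42.4% (37.3 to 47.6) of divergent and 29.8% (26.7 to 33.0) of single-direction peaks, and at 38.1% of all upstream windows. Over a wider stretch around the divergent peaks, with 530 matches, these letters lay 69.5 bp upstream of the nearest start at the median.

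Over the same wider stretch, which takes in more matches than the 100 bp shares above, the elements lay on both sides of the start sites. DREF matches lay 24.0 bp upstream of the nearest start at the median, motif 7 at 4 bp upstream, E-boxes 6 bp downstream and GAGA 104 bp downstream. These medians carry a sign, so they do not give the distance. Up to 100 bp upstream lay 49 of 66 DREF, 108 of 233 motif 7 and 103 of 247 E-box matches. Downstream lay 14, 108 and 137 of them. Around the summit, there were 8.19 E-box matches per 100 divergent peaks within 50 bp and 19.2 at 101 to 150 bp. A core of the Sine oculis site had 2.82 matches per 100 divergent and 2.86 per 100 single-direction peaks within 50 bp. At 51 to 100 bp these were 4.52 and 1.87. GC content was lowest under the summit, with a mean of 34.3% ± 9.83 (SD over 354 peaks) within 50 bp, and rose to 43.7% ± 6.37 at 201 to 300 bp. At single-direction peaks it rose from 37.6% to 43.3%.

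Over all spacings together, head-to-head pairs with an E-box or motif 7 more often had a peak than pairs without. An E-box within 200 bp of the midpoint between the starts was present at 145 of 366 pairs with a summit (39.6%, 34.7 to 44.7) and at 421 of 1898 without (22.2%, 20.4 to 24.1). Read the other way, 25.6% of pairs with an E-box and 13.0% of pairs without one had a summit, in a set with 16.2% in all. The same shares were 19.1% and 11.4% in replicate 1 and 26.7% and 17.2% in replicate 3, and in each list the intervals did not overlap. Pairs 401 to 1000 bp apart were 88 of the 566 with an E-box and 698 of the 1698 without one. For motif 7 they were 96 of 559 and 690 of 1705. At such spacings the window mostly ends short of the starts, and the rule leaves less room for a summit. How far this makes up the pooled differences was not tested. Shares by spacing are given next, without a test between the classes. Among pairs 201 to 400 bp apart 34.8% with and 18.8% without an E-box had a summit, with 25.8% and 16% in replicate 1 and 38.9% and 27.0% in replicate 3. Up to 200 bp apart it was 20.5% (15.8 to 26.1) against 13.7% (10.8 to 17.3), with 15.4% and 13.0% in replicate 1 and 18.8% and 18.5% in replicate 3, so the intervals overlapped in all 3 lists. Over all spacings motif 7 gave 21.8% with and 14.3% without it in the IDR list, 19.3% and 11.3% in replicate 1, and 28.4% and 16.7% in replicate 3. Up to 200 bp apart these were 15.2% and 16.5%, 17.3% and 12.4%, and 20.3% and 17.9%, with overlapping intervals, and at 201 to 400 bp 30.5% and 20.3%, 24.1% and 16.5%, and 39.5% and 26.2%. In this last class the replicate 1 intervals overlapped for motif 7 (19.3 to 29.5 against 13.6 to 19.8), while those of the E-box were apart in each list. From 401 to 1000 bp apart the IDR list had 13.6% with and 7.88% without an E-box. For motif 7 it had 11.5% and 8.12%. At that spacing the intervals of both elements overlapped in all 3 lists. With an E-box and motif 7 together 29.8% (23.4 to 37.1) of 168 pairs had a summit, and with neither 11.4% (9.79 to 13.2) of 1307. A second E-box added little, with 25.3% of 466 pairs with 1 and 27.1% of 85 pairs with 2.

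DREF, M1BP, BEAF and GAGA showed no such difference over all spacings together. Pairs with DREF had a summit in 15% and those without in 16.4%, and the shares were 17.8% and 16% for M1BP, 16.4% and 15.8% for BEAF and 15.2% and 16.2% for GAGA, all with overlapping intervals. Close pairs, up to 200 bp apart, less often had a summit where DREF or BEAF was present. There 8.59% (4.87 to 14.7) of pairs with DREF and 17.9% (14.9 to 21.3) without it had a summit, with 9.38% and 14.9% in replicate 1 and 10.9% and 20.4% in replicate 3, where the intervals of each replicate overlapped. For BEAF it was 12.6% (9.90 to 15.9) against 24.1% (18.8 to 30.5), with 10.7% and 21.2% in replicate 1 and 14.5% and 28.1% in replicate 3, and in no list did they overlap. The mean GC content over the same windows was 36.3% both in pairs with and in pairs without a summit. Within 100 bp of the midpoint the difference in E-box share fell from 17.4 to 3.85 percentage points. At genes with no divergent partner, within 200 bp of the start, 8.92% (7.58 to 10.5) of genes with an E-box and 7.12% (6.49 to 7.81) without had a summit. There it was 15.8% (13.0 to 19.0) against 6.79% (6.22 to 7.41) for GAGA, 13.9% (10.3 to 18.5) against 7.24% (6.66 to 7.86) for M1BP and 9.28% (7.60 to 11.3) against 7.22% (6.61 to 7.88) for motif 7. The E-box comparison, its window and the spacing ranges were chosen after the values had been seen. Some pairs repeat 1 locus: 45 involve histone genes, of which 1 had a summit, and 37 involve the many annotated pre-mod(mdg4) genes, of which 0 had a summit in the IDR list and 21 in each replicate's list. Without these pairs the shares over all spacings were 25.7% and 13.6% for the E-box and 23% and 14.7% for motif 7 in the IDR list. For BEAF up to 200 bp apart they were 13.6% and 25.5% in the IDR list, 11.5% and 18.8% in replicate 1, with overlapping intervals there, and 15.7% and 26.0% in replicate 3.

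**Figure D4:**
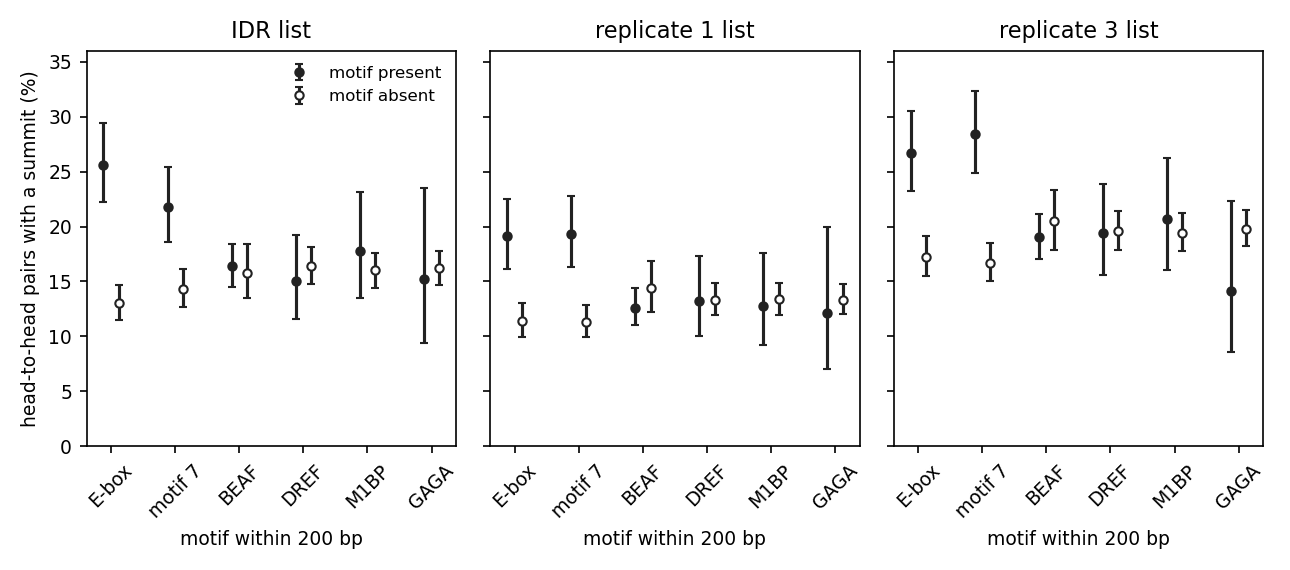
Share of autosomal head-to-head pairs with a summit (y axis, percent) when an element is present (filled) or absent (open) within 200 bp of the midpoint, in the IDR list and each replicate's list; bars are 95% Wilson intervals. Over all spacings together the E-box and motif 7 intervals are apart in all 3 lists (25.6% against 13.0% and 21.8% against 14.3% in the IDR list), and those of the other 4 overlap. Pairs without an E-box or without motif 7 were also more often over 400 bp apart.

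Among the lists with at least 14 partnered genes, cytosolic ribosomal protein genes were most often found at these peaks. Of the 4347 autosomal genes with a divergent partner 706, or 16.2%, were genes of a divergent peak. The share with any promoter summit, a wider count, was 19.7% in the IDR list, 15.8% in replicate 1 and 23.1% in replicate 3. Counts from the replicate lists are thus to be read against differing backgrounds. For cytosolic ribosomal proteins it was 20 of 46 (43.5%, 30.2 to 57.8), with 14 in the list of replicate 1 and 21 in that of replicate 3. Their signals were moderate, from 110 to 454 with a median of 226. RpL7 with Ripalpha had 454 and ranks 482 and 314 in replicates 1 and 3. RpS27 with the nuclear pore gene Nup37 had 438 and ranks 440 and 356, and RpL34b with CG8132 had 353 and ranks 614 and 634. RpL32, RpL31, RpL4, RpL18 and RpS18 had no peak in replicate 1. Peaks at this list were not particular to divergent promoters. Of its 78 autosomal genes, 13 were the nearest gene of a single-direction promoter peak, against 1 of the 62 mitochondrial ribosomal protein genes. Mitochondrial ribosomal proteins had 15 of 49 (30.6%, 19.5 to 44.5), 10 and 13 in the replicate lists, with signals of 113 to 1092. mRpS23 and mRpL23 were named above, and mRpS10 with the methyltransferase gene Art3 had 731 and ranks 117 and 78.

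Other parts of the translation machinery were mixed. Aminoacyl-tRNA synthetases had 6 of 20 (30.0%, 14.5 to 51.9), led by SerRS, ThrRS with Patsas (320) and AspRS with Nmda1 (228). Translation factors had 4 of 24 (16.7%), led by eIF4EHP, a repressor that binds the mRNA cap, with CG18428 (570), eIF3h with senju (300) and eIF1 with RpL28 (283). Genes of oxidative phosphorylation had 4 of 35 (11.4%, 4.54 to 26.0), with ND-MWFE and TppII at 306, COX5A and glo at 123, and COX7B and Sec3 at 122. Mitochondrial import had 2 of 3, Tom7 (218) and Tim10 (111), and Miro, for mitochondrial transport, was at 166 with spas.

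Genes of chromatin architecture at these peaks included those of M1BP and DREF themselves. The list had 5 of 14 (35.7%, 16.3 to 61.2): Chro, Cp190, an insulator protein gene paired with CG4338 (402, ranks 417 and 541), Nup98-96 with mbc (285, ranks 1077 and 838), M1BP with CG8202 (190, rank 1605 in replicate 3 and no peak in replicate 1) and Dref with RpL13 (166, ranks 2635 and 2148). Polycomb and Trithorax genes had 4 of 16, the remodelling ATPase gene brm with Arl1 at 731 and ranks 95 and 97, E(z) at 298 with ranks 2070 and 557, mor, a partner of brm in the same complex, with Hel89B at 148, and Sfmbt at 111 with no replicate 1 peak.

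Autophagy and TOR genes had 6 of 18 (33.3%, 16.3 to 56.3), namely Atg2 with CG12093 (385, no replicate 1 peak), Atg17 with Xe7 (384, ranks 494 and 492), Atg18a with ERR (255), Atg4b, Atg9 and Rheb. Vesicle and membrane transport had 10 of 60 (16.7%), led by Vps33B with Fur1 (600), AP-2alpha with ebi (351) and Snapin (263). General transcription had 8 of 52 (15.4%), led by Polr3E with CG10584 (506), MED30 with Rev1 (346) and Polr2H with CG11247 (298). Cell cycle genes had 6 of 31 (19.4%), led by Grip71 with Faf2 (344), SMC6 with CG6204 (270) and Cdk12 with SAK (226). The intervals of these lists held 16.2%, apart from that of autophagy, which began at 16.3%.

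Other housekeeping groups had lower shares, with intervals that still held 16.2%. The ubiquitin list had 3 of 23 (13.0%), Uba2 with Cds (306), Cul5 with Bicra (137) and Ube3a with CG7600 (121). The proteasome had 2 of 23 (8.70%, 2.42 to 26.8), Rpn3 with l(2)37Bb (190) and Rpn5 with Hat1 (171). DNA replication and repair had 2 of 32 (6.25%, 1.73 to 20.1), tefu with Hsc70-4 (143) and Rad51D with CG8046 (141), and splicing 1 of 25 (4%, 0.710 to 19.5), Sf3b6 with Tnpo (147). Families of tissue-restricted genes such as chemosensory receptors and cuticle proteins had 0 of 60, which allows up to 6.02% by the Wilson interval. The lists of Dachshund's known settings hardly occur at divergent promoters: 1 of 16 retinal determination genes and 2 of 28 leg and antenna patterning genes had a partner, and none of the 3 had a divergent peak. Of the ecdysone response genes 4 of 23 had a partner, and only Hr96, a nuclear receptor gene paired with EMC6, had a peak (277, rank 830 in replicate 3 and no peak in replicate 1).

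**Figure D5:**
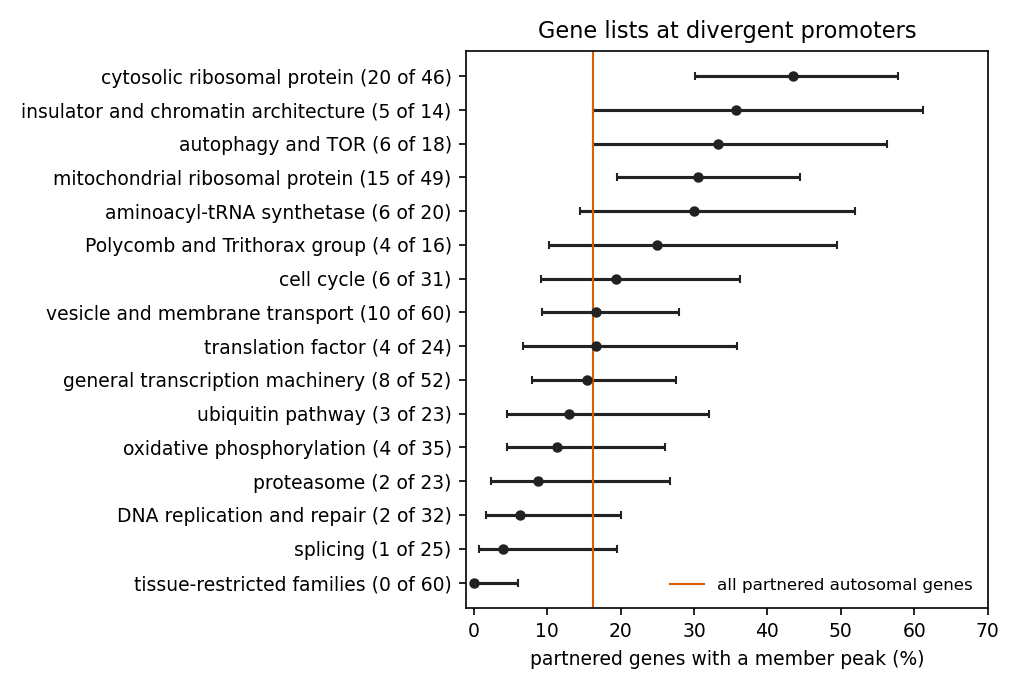
Share of genes with a divergent peak (x axis, percent of list genes with a divergent partner) for the lists with at least 14 such genes; bars are 95% Wilson intervals and the line marks 16.2%, the share over all partnered autosomal genes. Only the IDR list is drawn. In it the 2 ribosomal protein lists lie above the line, with 43.5% and 30.6%, and the tissue-restricted families wholly below it. The insulator and autophagy intervals begin at 16.3%.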

How the data were processed

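The deposited files are peak lists. Per the file names, the authors made a relaxed list for each replicate and for the pooled data, and a list that passed IDR. The lists compared in that step, the aligner and the peak caller were not given in the sources used here. Each peak carries the authors' deposited signal, without a stated scale, and a deposited −log10 q-value, capped in each list and used only to count peaks at a q-value of 0.05 or less. Coordinates are dm6, 1-based.

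Start sites came from Ensembl release 115 (13945 protein-coding genes, 19253 start sites). Summits were placed with python 3.11.15, numpy 2.4.6, pandas 2.3.3 and scipy 1.17.1, and figures drawn with matplotlib 3.10.9. The procedure was checked on simulated peaks. Replicates were compared through their 30000-peak lists, with an overlap of at least 1 bp, and through the 4137 highest peaks of each. The replicate lists and the IDR list rest on the same 2 libraries, so they are not independent. The 13 motifs were searched as exact letters on both strands. Shares carry 95% Wilson intervals. No test across conditions exists, since there is 1 group, and none over regions was made.

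Named genes are those of the 12 highest peaks, the 3 narrowest and 3 widest gaps, up to 3 peaks of highest signal in each of 21 gene lists, and peaks at the 500 bp limit; further names are those of peaks missing in a replicate, of overlapping transcripts and of doubled peaks, and remaining list members, picked after their values were seen. The 10 printed promoters are fewer than the rule allowed. Members and lists were chosen with earlier results of these data known.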

Additional observations from a re-analysis of the deposited data

Results flagged for a closer look

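Below the IDR list, the relaxed list of the pooled replicates held 455 weaker autosomal peaks that meet the same rule, 2.29% of 19896, which no comparison above uses. Their median signal was 55.2 and the highest 110, and 186 had a q-value of 0.05 or less. They include 398 of 2264 head-to-head pairs (17.6%) that have no IDR summit.

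On X, 55 IDR peaks met the rule, 18.5% (14.5 to 23.3) of the 298 peaks at protein-coding promoters there, against 30.6% (28.0 to 33.3) on the autosomes. Their median signal was 173. The X set was left out by the choice of members and the difference was not tested.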

How the results depend on the processing

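Of 114 recomputed values 74 stayed within their error or within 1.5 times the count, 40 moved and 0 changed direction. Most of them are counts or shares, which have no direction to change. A 250 bp window gave 215 peaks, 25.4% of promoter peaks, 18.0% of partnered genes and a log2 signal difference of 0.39; 1000 bp gave a difference of 0.10 and 78.2% of summits between the starts. Only peaks at or above the median signal gave 216 peaks, 34.2%, 11.8%, a difference of 0.04, 89.8% in both replicate lists, GAGA at 0.463% and an E-box difference of 19.6 points. With 1 start per gene the values were 37.1%, 17.2%, 0.14 and 77.1% between the starts. Peaks found in both lists gave 17.1% of partnered genes, and an overlap of at least 50% of the peak left 77.1% in both lists.

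Motif shares followed the window: at 50 and 200 bp, DREF was at 3.39% and 12.7%, M1BP at 2.26% and 10.2%, BEAF at 19.5% and 60.2%, motif 7 at 7.63% and 34.2%, and GAGA at 0.282% and 4.52%. The E-box difference of 17.4 points was 3.85 within 100 bp, 18.7 at 201 to 400 bp spacing and 11.4 at spacings up to 200 bp. Without histone and pre-mod(mdg4) genes it was 16.6, and 20.1% of partnered genes had a summit; these settings were chosen after seeing the data.

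From 1 replicate's list alone, peaks numbered 283 to 422, their share of promoter peaks ran from 27.5% to 32.2%, that of partnered genes from 15.8% to 23.1%, the signal difference from 0.17 to 0.20, presence in both lists from 72.3% to 94.0% and the E-box difference from 11.3 to 12.5 points, both below that of the IDR list. No paired analysis was possible because there is 1 group and no test. The cause of each shift was not tested, apart from windows that take in more sequence. Read depth is unknown, so how far it limits the missing replicate 1 peaks cannot be said.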

Other observations

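A few small families were picked for their counts, after these had been seen, so nothing is read from them beside the 16.2% of all partnered genes. Of 11 peroxin genes with a divergent partner 5 had a peak: Pex11ab (1047), Pex10 (311, no replicate 1 peak), Pex11c (270), and Pex14 and Pex16, which face each other across 1 peak of 136. Of 13 PIG genes, for the synthesis of glycolipid anchors, 5 did: PIG-F (753), PIG-G (400), PIG-M (238), PIG-L (198) and PIG-C (135). Coenzyme Q synthesis had 2 of 3, Coq4 (480) and Coq3 (367). The ferritin subunit genes Fer1HCH and Fer2LCH, whose products form 1 shell, share a peak of 499 with ranks 179 and 401 in replicates 1 and 3.

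The share of peaks at divergent promoters fell down the ranks of both replicates. In replicate 1 it was 13.7% of autosomal peaks in the top 1000, 6.95% at ranks 1001 to 4137, 3.87% at 4138 to 10000 and 1.47% beyond. In replicate 3 it was 16.7%, 11.8%, 7.75% and 2.75%. Genes known only by a CG number made up 32.9% of the 706 genes, against 34.8% of partnered and 43.2% of all autosomal protein-coding genes.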
